A study of Arabidopsis thaliana with 14 samples.

Results

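Mutants in genes for 2 subunits of the COP9 signalosome were compared by setting the transcript changes of csn5a-1 beside those of the CSN8 mutant. Each mutant was first compared with the wild type of its own array set, and the csn5a-1 effect was then subtracted from the CSN8 effect for every probe set. The comparison used the 10 untreated arrays of 14, and all 22746 non-control probe sets were tested. The Columbia and csn5a-1 groups had 3 arrays each, and the Wassilewskija and CSN8 groups had 2 arrays each. Whole seedlings were 12 days old in every group and had grown on agar with Murashige and Skoog salts, with 16 h of light and 8 h of darkness per day. The other 4 arrays came from Wassilewskija and CSN8 seedlings labelled with DTT, a reducing agent, and entered the estimate of the spread and some checks of the CSN8 effect. Neither dose nor duration was given for DTT, and the treatment text shared by all samples names no treatment, which conflicts with that label. The labels name the csn5a-1 allele, but for CSN8 only the mutant, with no allele and no accession background. Nothing in the labels says how many seedlings were pooled per array.

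The COP9 signalosome is a conserved protein complex that removes the ubiquitin-like modifier RUB (NEDD8) from cullins, the scaffolds of cullin-RING ubiquitin ligases. CSN5 carries the catalytic site and in Arabidopsis is encoded by CSN5A and CSN5B, whereas CSN8 is a structural subunit without catalytic activity. In this plant the complex was first known as a repressor of light-grown development in darkness, and it also acts on ligases that respond to auxin, jasmonate and gibberellin and on the cell cycle.

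Subunit, wild-type accession and array set changed together in this comparison and cannot be told apart. Values are log2 expression of a probe set, made with RMA, and a level in one array set is not comparable with a level in the other, because the sets look normalized separately. An effect is the mutant mean minus the wild-type mean on this log2 scale, given ± its standard error. The difference is the CSN8 effect minus the csn5a-1 effect, so a positive difference means that the CSN8 effect was the more positive of them. A probe set was called where limma's p, adjusted by Benjamini-Hochberg over all 22746 probe sets, was under 0.05. Arrays of one group correlated with r of 0.978 to 0.996. RNA integrity was read from the actin control probe sets, as 3′ signal over 5′ signal in log2. It was 1.85 to 2.64 in csn5a-1 against 0.939 to 1.21 in Columbia, and 2.81 in CSN8 of batch 1 against 1.49 to 1.99 in the other untreated arrays of that set. The same measure for GAPDH did not separate csn5a-1 (0.429 to 0.50) from Columbia (0.380 to 0.546), and was 0.341 in CSN8 of batch 1 against -0.029 to 0.247 in those other arrays. Their part in the results below was not tested. Rubisco activase, which marks green tissue, was high in all groups, with group means of 13.18 to 13.8 for its gene RCA. All 4 measured pollen and anther genes lay low, between 2.56 and 3.66 on average. Neither CSN5A nor the CSN8 gene could be read, because the annotation used gives neither a probe set of its own; that check of the labels was not made here.

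The mutants shared some changes and opposed each other in others. Of all probe sets, 7474 (32.9%) were called in csn5a-1, 3649 (16.0%) higher and 3825 (16.8%) lower. In CSN8, where fewer arrays were available, 1327 (5.83%) were called, 646 (2.84%) higher and 681 (2.99%) lower. The same direction was found for 451 probe sets (1.98%), of which 240 (1.06%) were higher and 211 (0.928%) were lower in both mutants. These 451 were 33.99% of the CSN8 calls and 6.03% of the csn5a-1 calls. Opposite directions were found for 241 probe sets (1.06%), 128 of them higher in CSN8 and lower in csn5a-1 and 113 the reverse, and the difference was called for all 241. Among the 692 probe sets called in both mutants, 65.2% thus went the same way. With the spread taken from the 10 untreated arrays alone, 289 probe sets were called in CSN8, 112 in both mutants in the same direction and 55 in opposite directions. With the replicate number as a block, which in the set of CSN8 is the batch named in the labels, 2706 probe sets were called in CSN8, 864 in both mutants in the same direction and 488 in opposite directions. Leaving out the CSN8 array of batch 1 reduced these 3 counts to 408, 171 and 75, and leaving out the Wassilewskija array of batch 1 reduced them to 426, 174 and 62. Without the Wassilewskija array of batch 2 they were 702, 241 and 146, and without the CSN8 array of batch 2 they were 1035, 366 and 160. The share with the same direction stayed between 62.3% and 73.7% when any array was left out.

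**Figure D1:**
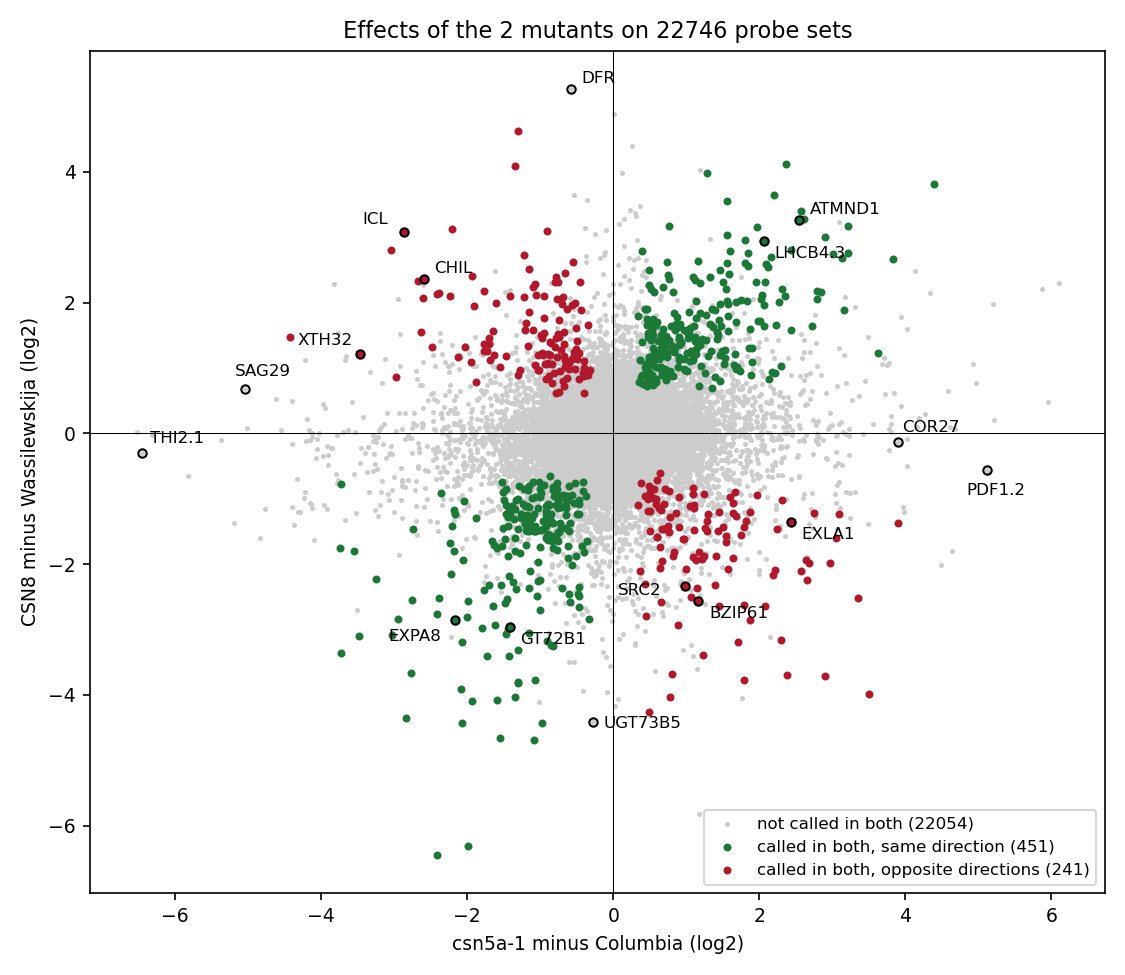
Effect of csn5a-1 (horizontal axis, log2) against the effect of CSN8 (vertical axis, log2) for 22746 probe sets, 1 point each. Green points were called in both mutants in the same direction (451), red points in opposite directions (241), and grey points were not called in both; circled genes are described in the text.

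The difference itself was called for 3995 probe sets (17.6%), 2158 (9.49%) with the more positive effect in CSN8 and 1837 (8.08%) with the more positive effect in csn5a-1. At an unadjusted p under 0.05 there were 7026. Of the 3995, 2547 were called in csn5a-1 only, 490 in CSN8 only, 98 in both in the same direction, 241 in both in opposite directions and 619 in neither. Across probe sets, which are not independent and share arrays, the 2 effects correlated with a Pearson r of 0.120. The median effect over all probe sets was -0.042 in csn5a-1 and 0.024 in CSN8, and the median difference was 0.063. The 95% interval of a difference had a median halfwidth of 0.567. Without the Wassilewskija array of batch 1 the count of called differences fell to 2657.

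Genes of the signalosome pathway itself did not separate the mutants at this precision. The list of signalosome, cullin, SKP1-like and F-box genes had 8 measured members, and limma called 0 differences among them, with 0 at an unadjusted p under 0.05. CSN5B (AT1G71230), the second gene for the catalytic subunit, read 4.61, 4.47 and 4.37 in Columbia, 4.38, 4.88 and 5.19 in csn5a-1, 4.91 and 4.83 in Wassilewskija and 5.25 and 5.10 in CSN8. Its arrays overlapped between csn5a-1 and Columbia, while both CSN8 arrays lay above both Wassilewskija arrays. Its effects were 0.34 ± 0.20 and 0.30 ± 0.19, neither called, and the difference of -0.032 had an interval of -0.70 to 0.63. CUL4, the scaffold of the DDB1-containing ligases, had effects of 0.23 ± 0.18 and 0.27 ± 0.17 with a difference interval of -0.55 to 0.62. The SKP1-like gene SK18 (-0.50 ± 0.13) and SLY1, the F-box gene of gibberellin signalling (-0.41 ± 0.12), fell in csn5a-1. Their CSN8 effects of -0.66 ± 0.16 and -0.36 ± 0.21 did not pass. RPN12a, a proteasome subunit gene and the 1 measured member of its list, rose in csn5a-1 by 0.46 ± 0.14 and had a CSN8 effect of 0.32 ± 0.13 that did not pass, with a difference interval of -0.56 to 0.28.

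The cell cycle and replication list had 15 measured members, of which 4 rose and 4 fell in csn5a-1, 3 rose and 0 fell in CSN8, and 2 (HTR12 and BUB3.2) rose in both. The DNA damage and recombination list had 7, of which 2 rose and 2 fell in csn5a-1, 2 rose and 0 fell in CSN8, and 2 (ATMND1 and CHR24) rose in both. ATMND1 (AT4G29170), known for its part in meiotic recombination, read 3.55, 3.83 and 3.76 in Columbia and 6.13, 6.52 and 6.16 in csn5a-1, and 3.15 and 3.04 in Wassilewskija and 6.29 and 6.41 in CSN8. Every mutant array lay more than 2 log2 units above its wild-type arrays. The effects were 2.55 ± 0.14 (adjusted p = 2.75e-05) and 3.26 ± 0.20 (adjusted p = 0.00141), and the difference of 0.70 (0.16 to 1.25) was not called. HTR12, the centromeric histone H3 gene, rose by 0.86 ± 0.16 and 1.66 ± 0.19, and BUB3.2, of the spindle checkpoint family, rose by 0.87 ± 0.13 and 1.78 ± 0.28. Both were also higher in CSN8 than in Wassilewskija in the DTT arrays, by 1.67 and 1.99. The difference for BUB3.2, 0.91, had an adjusted p of 0.0618, but passed with the replicate number as a block, at 0.0152. Outside these lists, ATSMC2, a condensin subunit gene, rose by 1.07 ± 0.13 and 1.26 ± 0.19, and the histone H2B gene HTB2 by 1.53 ± 0.23 and 1.16 ± 0.21. The CSN8 call of ATSMC2 was lost without either array of batch 1, with an adjusted p of up to 0.0902 over the alternatives, and that of HTB2 was lost without any 1 of the untreated arrays of its set, with up to 0.130.

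The Aurora kinase genes, which act in mitosis, did not form 1 pattern. AUR1 and AUR3 rose in csn5a-1 by 1.16 and 1.32, and their CSN8 effects of 1.02 and 1.19 did not pass. AUR2 read 7.61, 7.63 and 7.49 in Columbia and 5.73, 5.97 and 6.25 in csn5a-1, against 6.5 and 6.88 in Wassilewskija and 7.24 and 7.16 in CSN8. It fell in csn5a-1, its CSN8 effect of 0.51 ± 0.20 did not pass, and its difference of 2.1 (1.55 to 2.65, adjusted p = 0.000272) was the 1 called difference of the cell cycle and replication list. That share, 6.67%, lay below the 17.6% of all probe sets. The count was 4 without the Columbia array 1 and 3 with the replicate block. The replication genes PRL, POLA3 and POLD3 also fell in csn5a-1, with effects of -1.02, -0.67 and -0.61, against -0.47, -0.13 and -0.11 in CSN8, not called. Over this list the median effect was 0.064 in csn5a-1 and 0.312 in CSN8. In the DNA damage and recombination list the median effects were 0.030 and 0.217, and CHR24, a SNF2-type chromatin remodelling gene, had effects of 0.56 and 1.23. The members that fell in csn5a-1 were RAD5 (-0.69) and RAD51B (-0.53). The list had 3 called differences (42.9%), 0.67 for CHR24, 0.73 for RAD51B and 0.67 for RAD9, and 0 differences were called without the Columbia array 3 or the Wassilewskija array of batch 1.

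LHCB4.3 (AT2G40100), a minor light-harvesting protein gene of photosystem II, was among the largest increases common to both mutants. It read 8.11, 6.70 and 6.71 in Columbia and 9.32, 9.14 and 9.27 in csn5a-1, and 7.90 and 7.5 in Wassilewskija and 10.74 and 10.53 in CSN8. The groups did not overlap in either set. The effects were 2.07 ± 0.36 (adjusted p = 0.00385) and 2.94 ± 0.34 (adjusted p = 0.00672). Its relatives did not follow: LHCB4.2 fell in csn5a-1 (effect -0.88 ± 0.13) and had a CSN8 effect of -1.38 ± 0.44 that did not pass, and LHCB4.1 had effects of -0.14 and -0.33. Among the 10 measured nuclear photosynthesis genes, LHCB4.3 was the 1 member higher in both. The 1 called difference (10% of members), that of ATPC2, was lost with the replicate block at an adjusted p of 0.0614.

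Other genes higher in both mutants were DI21, a dehydration-induced gene (1.42 and 1.55), SCPL49, of the serine carboxypeptidase-like family (1.53 and 1.27), and GLR3.5, a glutamate receptor-like channel gene (1.02 and 1.55). NRPD7, for an RNA polymerase subunit, rose by 1.33 and 1.26. SDH2-1, for the iron-sulfur subunit of succinate dehydrogenase, rose by 1.01 and 1.23 on 1 probe set, while its other probe set gave -0.01 and -0.02. FU rose by 1.5 and 2.32, and its other probe set gave 0.20 and 0.08. For SCPL49, DI21, NRPD7 and SDH2-1 the CSN8 call was lost without the CSN8 array of batch 1 and with the 10 untreated arrays alone, with a highest adjusted p over the alternatives of 0.0811 for DI21 to 0.372 for SCPL49. With the DTT arrays the CSN8 effect of SCPL49 was 0.38 and its difference from csn5a-1 was called, at -1.15 (adjusted p = 0.00357). GLR3.5 lost its CSN8 call with the 10 untreated arrays alone, at 0.0551.

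A pair of genes whose enzymes conjugate auxin fell in both mutants. IAGLU (AT4G15550), a glucosyltransferase gene whose enzyme conjugates indole-3-acetic acid, read 8.75, 9.06 and 8.56 in Columbia and 6.73, 7.38 and 7.13 in csn5a-1, and 10.08 and 9.35 in Wassilewskija and 7.44 and 7.35 in CSN8. Its effects were -1.71 ± 0.20 (adjusted p = 0.000651) and -2.32 ± 0.30 (adjusted p = 0.0103), with a difference of -0.61 (-1.45 to 0.22). WES1, a GH3 gene whose enzyme conjugates auxin to amino acids, fell, with effects of -0.82 ± 0.22 and -1.36 ± 0.23. The IAGLU call in CSN8 was lost without the CSN8 array of batch 1, at an adjusted p of 0.0565. These were the 2 of 20 measured auxin genes called in both mutants, and the only ones called in CSN8. The other GH3 genes of the list, GH3.1, GH3.3, GH3.9 and GH3.17, were thus not called there. In csn5a-1 8 members of the list fell and 1 rose. LBD16, a lateral root transcription factor gene that responds to auxin, fell in csn5a-1 (effect -1.44 ± 0.14) and had a CSN8 effect of -0.017 ± 0.21 that did not pass, and its difference of 1.43 (0.87 to 1.99) was called. The auxin list had 3 called differences (15.0% of members), near the share of all probe sets, and its median effects were -0.275 in csn5a-1 and -0.031 in CSN8. Only 1 difference was called without the csn5a-1 array 3 or without either array of batch 1.

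Other decreases common to both mutants were in cell wall, cold and glycosyltransferase genes. The expansin gene EXPA8 read 9.24, 8.61 and 9.49 in Columbia and 5.70, 7.61 and 7.52 in csn5a-1, and 7.64 and 7.86 in Wassilewskija and 4.63 and 5.15 in CSN8. The csn5a-1 array 1 was the lowest of its group by nearly 2 units, and the difference of -0.68 between the effects had a wide interval (-2.35 to 0.98). Its CSN8 call was lost without either Wassilewskija array or without the CSN8 array of batch 1, at up to an adjusted p of 0.0825. COR15B, a cold-induced plastid protein gene, fell, with effects of -1.38 ± 0.20 and -2.28 ± 0.20, and its difference of -0.90 (adjusted p = 0.0623) passed with the replicate number as a block, at 0.0237. GT72B1 (AT4G01070), whose glucosyltransferase acts on phenolic compounds, read 10.20, 9.76 and 9.57 in Columbia and 8.29, 8.45 and 8.54 in csn5a-1, and 9.15 and 9.03 in Wassilewskija and 6.01 and 6.24 in CSN8. It fell, with effects of -1.42 ± 0.17 and -2.97 ± 0.17, and the decrease was larger in CSN8 (difference -1.55, -2.11 to -0.99, adjusted p = 0.00197). Hop3, a gene for a co-chaperone that links HSP70 and HSP90, fell, with effects of -1.99 ± 0.16 and -2.56 ± 0.33, and its CSN8 call was lost without the CSN8 array of batch 1, with an adjusted p of up to 0.0571.

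**Figure D2:**
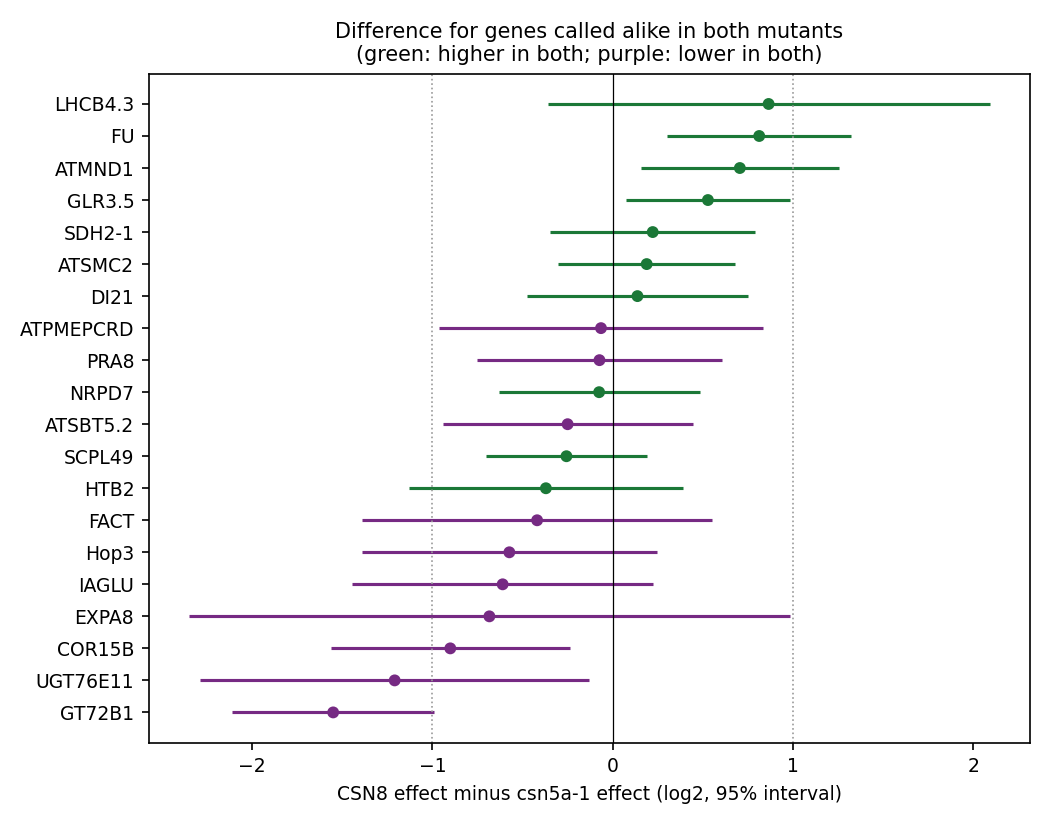
Difference of the 2 effects (log2, CSN8 minus csn5a-1; point: estimate, line: 95% interval) for the 20 genes with the largest common changes, green where higher and purple where lower in both mutants. Dotted lines mark -1 and 1; the interval of GT72B1 ends near -1, and most others include 0.

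An equal direction did not show an equal size. The 95% interval of the difference lay between -1 and 1 for 149 of the 451 probe sets with a common direction, 33.0% of them. The difference was called for 98 of the 451, with the larger change in CSN8 for 84 and in csn5a-1 for 14. For the rest the data do not settle whether the sizes differed. In the DTT arrays the CSN8 effect had the same sign for 450 of the 451 and for 233 of the 241 opposed probe sets. These arrays carry the same batch labels and entered the spread behind the CSN8 calls, so they are not an independent check. In each batch the sign held for all 451 and all 241, which had been called from the mean of those same batches.

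**Figure D3:**
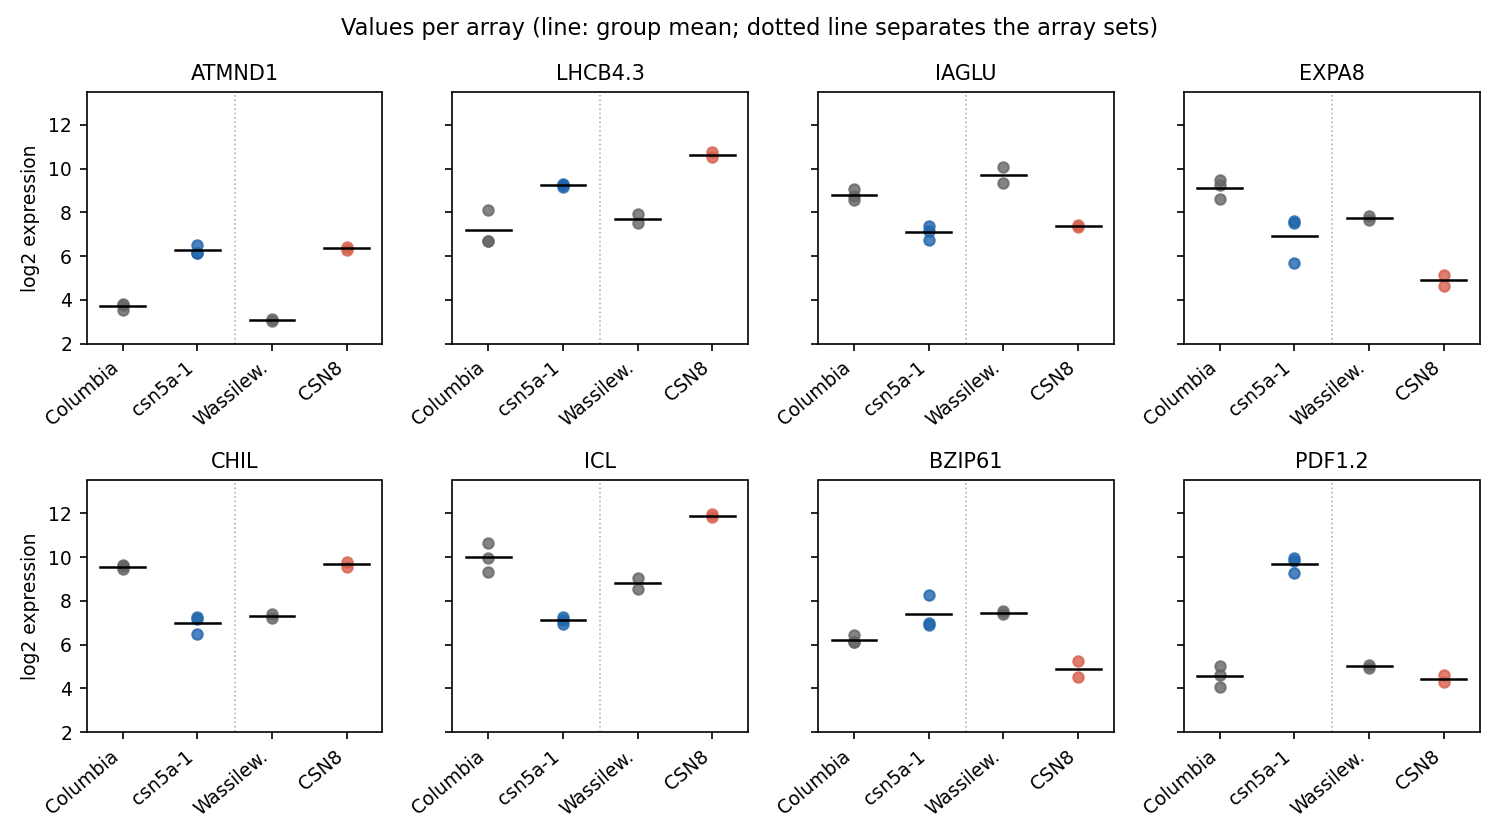
Log2 expression in every untreated array (points) with group means (lines) for 8 genes, the Columbia set left and the Wassilewskija set right of the dotted line. ATMND1 and LHCB4.3 were higher and IAGLU and EXPA8 lower in both mutants, CHIL and ICL were lower in csn5a-1 and higher in CSN8, BZIP61 was the reverse, and PDF1.2 was high in csn5a-1.

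Flavonoid and anthocyanin genes diverged between the mutants. Of 9 measured list members, 4 rose in CSN8 and 0 fell, while in csn5a-1 2 fell and 0 rose. The list had 5 called differences, all positive (55.6% of members, against 17.6% of all probe sets). CHIL (AT5G05270), whose product enhances flavonoid synthesis, read 9.65, 9.46 and 9.60 in Columbia and 6.47, 7.18 and 7.27 in csn5a-1. In the other set it read 7.20 and 7.41 in Wassilewskija and 9.79 and 9.55 in CSN8. The groups were apart in both sets and in opposite order, with effects of -2.59 ± 0.21 and 2.36 ± 0.17 and a difference of 4.96 (4.3 to 5.61, adjusted p = 3.73e-06). DFR (AT5G42800), for dihydroflavonol reductase at the entry to anthocyanin synthesis, read 4.57, 4.55 and 4.95 in Columbia and 3.53, 4.22 and 4.56 in csn5a-1, an effect of -0.58 ± 0.26 that did not pass. In Wassilewskija it read 3.62 and 3.98, and in CSN8 9.59 and 8.54, an increase of 5.27 ± 0.40 (adjusted p = 0.00216). The glycosyltransferase genes UGT78D2, which acts on flavonols and anthocyanidins, and UF3GT, which decorates anthocyanins, rose in CSN8 by 1.28 ± 0.28 and 1.52 ± 0.29, against -0.72 ± 0.18, a decrease, and -0.12 ± 0.16 in csn5a-1. AT5MAT, for an anthocyanin malonyltransferase, had effects of -0.16 and 0.79 that did not pass, although the difference did. BAN, of proanthocyanidin synthesis, had a difference of -0.10 that did not pass. The median effect over the list was -0.157 in csn5a-1 and 0.788 in CSN8. Leaving out any 1 array gave 4 to 6 called differences.

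Genes that mobilise reserves included the second-largest positive difference of a named gene. ICL (AT3G21720), for isocitrate lyase of the glyoxylate cycle, read 9.97, 9.32 and 10.66 in Columbia and 7.13, 6.95 and 7.26 in csn5a-1, and 8.56 and 9.05 in Wassilewskija and 11.95 and 11.83 in CSN8. It fell by 2.87 ± 0.30 in csn5a-1 and rose by 3.08 ± 0.45 in CSN8, a difference of 5.95 (4.66 to 7.25, adjusted p = 8.65e-05). ASPGB1, for an asparaginase that releases ammonium from asparagine, read 8.22 and 6.29 in Wassilewskija and 4.36 and 4.73 in CSN8. It fell in CSN8 (effect -2.71 ± 0.57), and its csn5a-1 effect of 0.29 ± 0.14 did not pass. The difference of -3.0 (-4.30 to -1.71) was called. In all, 5 of 13 measured list members had a called difference (38.5%, against 17.6% of all probe sets), 3 positive and 2 negative. Without either array of batch 1, 3 remained called. MCCA, MCCB and IVD, of leucine breakdown, had effects between -1.32 and 0.64, none called in either mutant.

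Of 21 measured sugar transporter genes, 7 had a called difference (33.3%, against 17.6% of all probe sets), 6 of them positive. In csn5a-1 10 members fell and 1 rose, and in CSN8, where fewer of all probe sets were called, 1 fell and 0 rose. The median effect was -0.332 in csn5a-1 and -0.063 in CSN8. SAG29 (AT5G13170), a SWEET-type transporter gene also known as a senescence marker, read 10.92, 11.12 and 10.69 in Columbia and 5.77, 5.91 and 5.94 in csn5a-1, against 4.62 and 4.97 in Wassilewskija and 5.34 and 5.61 in CSN8. Its effect of -5.04 in csn5a-1 met a CSN8 effect of 0.68 ± 0.28 that did not pass, and the difference was 5.72 (5.04 to 6.40, adjusted p = 2.64e-06). SWEET13, for a sucrose exporter that serves phloem loading, fell by 2.95 ± 0.28 in csn5a-1. In CSN8 it read 7.39 and 4.85, the batch 1 array being the higher, against 4.26 and 3.87 in Wassilewskija, an effect of 2.05 ± 0.95 that did not pass, and the difference was 5.0 (2.78 to 7.22). SWEET4 fell by 3.01 ± 0.15 in csn5a-1, and the tonoplast monosaccharide transporter gene TMT2 fell with an effect of -1.30 ± 0.13, while their CSN8 effects were -1.21 ± 0.38 and 0.22 ± 0.17, neither called. SWEET16, for a vacuolar sugar carrier, was the 1 member that fell in both, with effects of -0.49 ± 0.13 and -2.46 ± 0.28, and its difference of -1.97 was negative. TMT1 rose in csn5a-1 by 1.14 ± 0.16, with no called difference. Leaving out any 1 array gave 6 to 8 called differences.

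**Figure D4:**
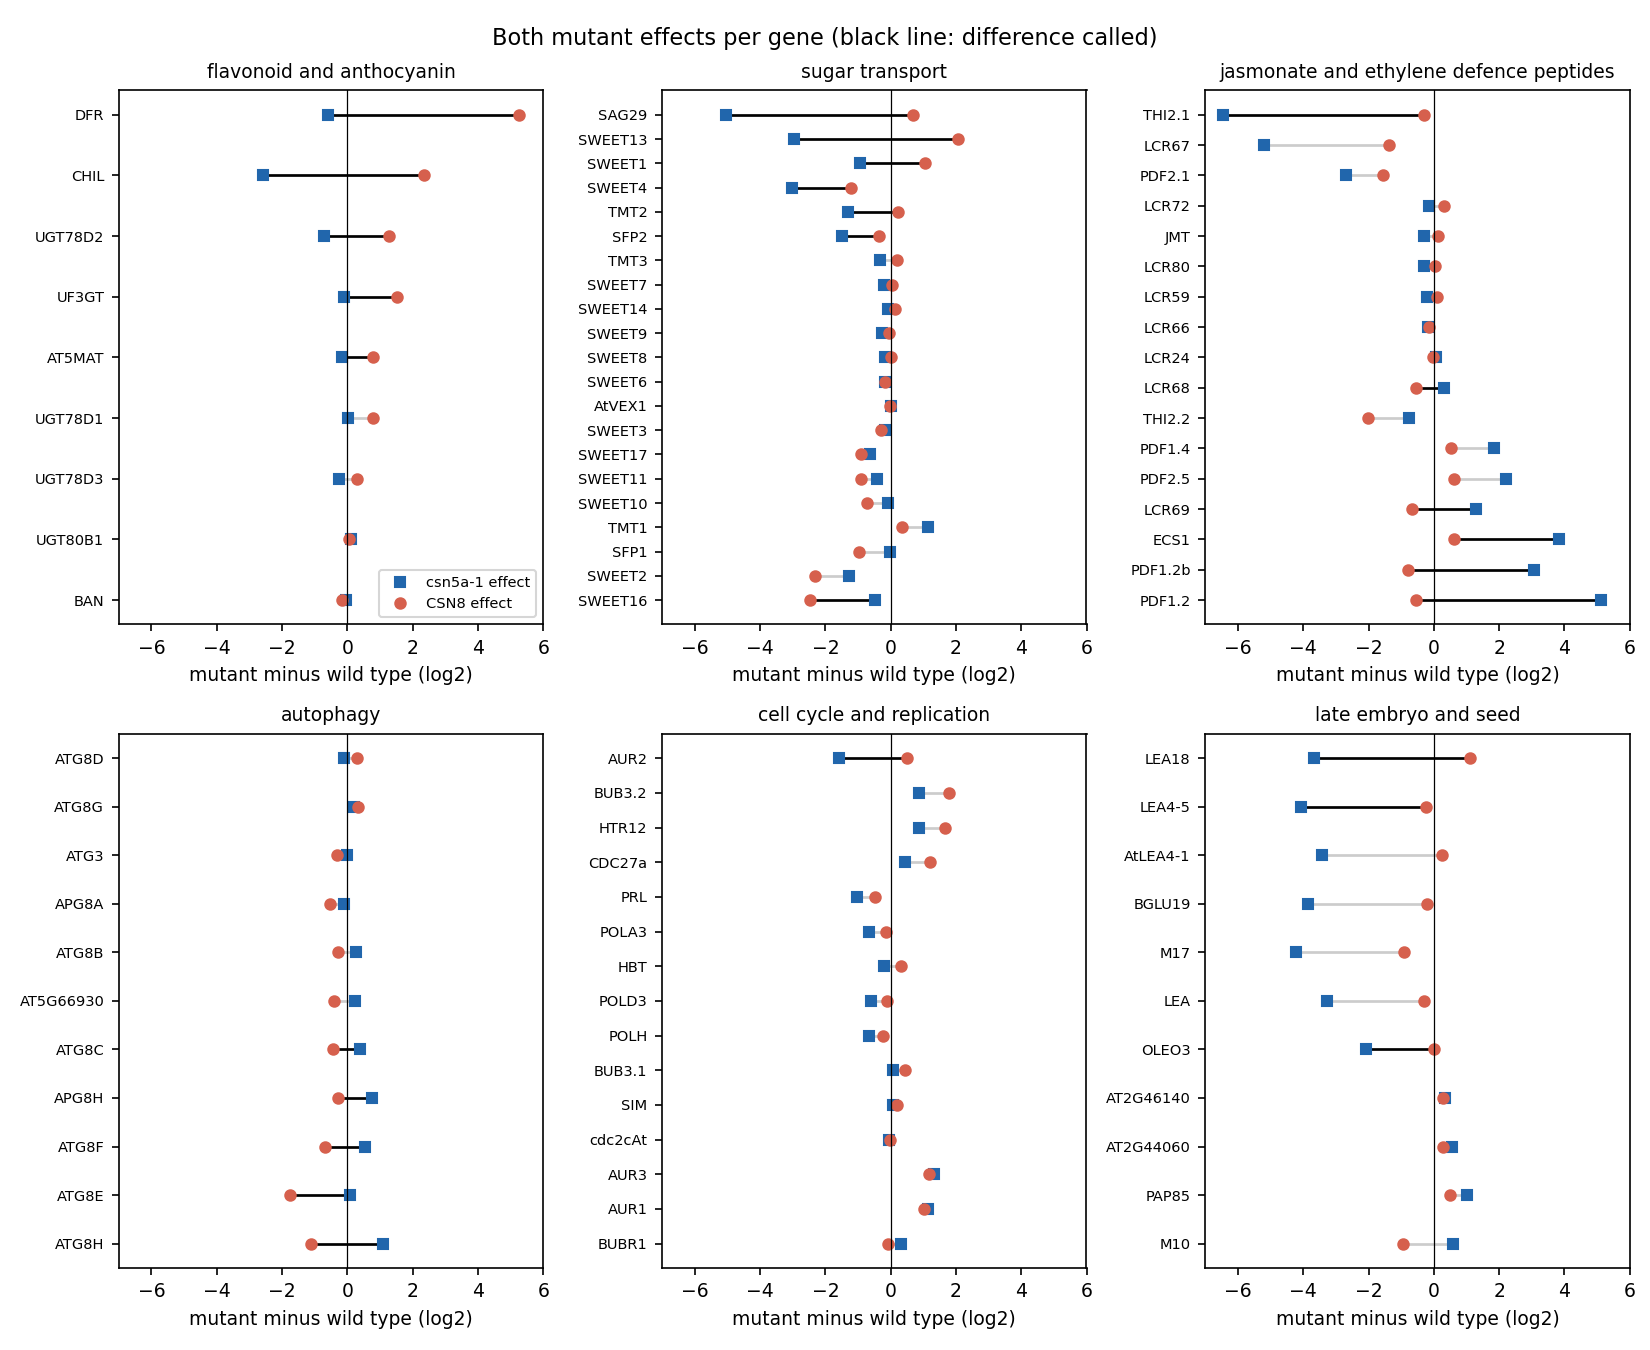
Effects of csn5a-1 (blue squares) and CSN8 (red circles) in log2 for each measured gene of 6 lists, joined by a black line where the difference was called and a grey line where it was not. Red circles lie right of blue squares for DFR, CHIL and the upper sugar transporters and left of them for PDF1.2 and several ATG8 genes; in the cell cycle list the 2 marks mostly lie close.

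Defence peptide genes changed in csn5a-1, where 6 of 17 measured members rose and 3 fell, while limma called 0 in CSN8 (5 at an unadjusted p under 0.05). Of all probe sets 32.9% were called in csn5a-1 and 5.83% in CSN8, and 0 of 17 lies near the latter share. PDF1.2 (AT5G44420), the plant defensin gene used as a marker of jasmonate and ethylene signalling, read 5.01, 4.60 and 4.05 in Columbia and 9.26, 9.84 and 9.95 in csn5a-1. In Wassilewskija it read 4.95 and 5.05 and in CSN8 4.60 and 4.3, so the csn5a-1 arrays were high and those of CSN8 were not. The difference was -5.68 (-6.49 to -4.88, adjusted p = 6.90e-06), and that of its relative PDF1.2b was -3.86 (-5.74 to -1.98), although the probe set of PDF1.2b is of a type that can bind related transcripts. ECS1, a cell wall protein gene linked to pathogen response, rose by 3.85 ± 0.43 in csn5a-1, with a CSN8 effect of 0.61 ± 0.19 that did not pass and a difference of -3.23 (-4.48 to -1.98). THI2.1 (AT1G72260), a thionin gene that also responds to jasmonate, went the other way and read 9.87, 9.36 and 9.68 in Columbia and 2.93, 3.36 and 3.23 in csn5a-1. All 4 untreated arrays of the other set lay in the lowest 25% of that array's values, at 2.80 and 2.97 and 2.52 and 2.64, where a decrease had little room. Its difference of 6.16 (5.62 to 6.70) was the largest positive one of a named gene. The list had 6 called differences (35.3%, against 17.6% of all probe sets), 5 of them negative. When any 1 array was left out 5 or 6 were called, and the median effects were -0.149 and -0.150.

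Of 14 measured immune receptor and signalling genes, 7 rose and 0 fell in csn5a-1, and limma called 0 in CSN8 (1 at an unadjusted p under 0.05). Over all probe sets the called shares were 32.9% and 5.83%, so 0 of 14 in CSN8 lies near the share there. The median effect was positive in both mutants, 0.599 in csn5a-1 and 0.447 in CSN8, and 2 differences were called (14.3%), below the share of all probe sets. CSA1, a gene for a nucleotide-binding leucine-rich repeat receptor, read 3.80, 3.57 and 3.68 in Columbia and 7.09, 6.72 and 6.59 in csn5a-1, against 3.07 and 3.37 in Wassilewskija and 3.48 and 3.30 in CSN8. Its difference was -2.95 (-3.50 to -2.40, adjusted p = 3.18e-05). RING1, a ubiquitin ligase gene linked to programmed cell death, had a difference of -2.77 (-4.13 to -1.40), which was lost when the CSN8 effect came from the DTT arrays (adjusted p = 0.128). These were the 2 called differences. For the transcription factor genes WRKY47 and WRKY53, which rose in csn5a-1 by 1.56 and 1.23, the CSN8 effects were 1.02 and 0.64 and the difference was not called.

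Autophagy genes of the ATG8 family, whose products coat the autophagosome membrane, separated the mutants in the negative direction. Of 11 measured list members, 5 had a called difference (45.5%, against 17.6% of all probe sets), all negative, while 3 rose in csn5a-1 and 1 fell in CSN8. ATG8E (AT2G45170) read 9.04, 8.88 and 8.92 in Columbia and 9.63, 8.88 and 8.56 in csn5a-1, which overlapped, and 9.24 and 9.02 in Wassilewskija and 7.29 and 7.43 in CSN8. It fell in CSN8 (effect -1.77 ± 0.23, adjusted p = 0.0107), and the difference was -1.84 (-2.68 to -1.0, adjusted p = 0.00711). ATG8F and APG8H rose in csn5a-1 by 0.55 ± 0.12 and 0.77 ± 0.12, and their CSN8 effects of -0.70 ± 0.16 and -0.28 ± 0.15 did not pass. ATG8H rose in csn5a-1 by 1.08 ± 0.19 and had a CSN8 effect of -1.11 ± 0.44 that did not pass, and its difference of -2.19 was -1.46 without the Wassilewskija array of batch 1. ATG8D and ATG8G had differences of 0.39 and 0.11, not called. The median effect of the list was 0.226 in csn5a-1 and -0.407 in CSN8, and 4 to 6 differences were called when any 1 array was left out.

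Co-chaperone genes of the Fes1 family, named after a yeast exchange factor of HSP70, diverged. Fes1B (AT3G53800) read 3.95, 3.84 and 4.51 in Columbia and 6.16, 6.28 and 6.5 in csn5a-1, and 6.58 and 6.80 in Wassilewskija and 5.17 and 5.58 in CSN8. The mutant arrays were the higher ones in the first set and the lower ones in the other. It rose in csn5a-1 by 2.21 ± 0.19, its CSN8 effect of -1.32 ± 0.31 did not pass (adjusted p = 0.0591), and the difference was -3.53 (-4.37 to -2.69, adjusted p = 0.000154). Fes1C rose in csn5a-1 by 1.34 ± 0.13 with a CSN8 effect of -0.20 ± 0.19, not called. Fes1A fell in CSN8 (effect -2.90 ± 0.28) with a csn5a-1 effect of -0.64 ± 0.27, not called. HSA32, a gene of acquired thermotolerance, fell in csn5a-1 (effect -1.55 ± 0.20), with a difference of 1.21. It was the 1 positive call among the 5 of 12 measured members of the heat shock list (41.7%, against 17.6% of all probe sets). The median effects of that list were -0.159 and -0.292. Without any 1 of the Columbia arrays 2 and 3, the csn5a-1 arrays 1 and 2, the Wassilewskija array of batch 1 or the CSN8 array of batch 2, 3 differences were called.

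Glycosyltransferase genes of the UGT family, which attach sugars to hormones and secondary metabolites, diverged in both directions. Of 52 measured members, 15 had a called difference (28.8%, against 17.6% of all probe sets), 7 positive and 8 negative. Leaving out any 1 array gave 12 to 17. UGT73B5 (AT2G15480), a stress-induced member, read 5.62, 5.49 and 5.56 in Columbia and 5.79, 5.14 and 4.92 in csn5a-1, and 8.74 and 7.75 in Wassilewskija and 3.46 and 4.21 in CSN8. It fell by 4.41 ± 0.36 in CSN8 (adjusted p = 0.00274) and its csn5a-1 effect of -0.27 ± 0.21 did not pass, and the difference was -4.13 (-5.10 to -3.17). UGT84A1, which acts on hydroxycinnamates, fell by 1.70 ± 0.15 in csn5a-1 and rose by 1.37 ± 0.17 in CSN8. UGT71B1 fell and rose likewise, with effects of -1.04 ± 0.22 and 0.97 ± 0.21. UGT85A2 rose in csn5a-1 by 1.85 ± 0.31 with a CSN8 effect of -0.26 ± 0.25, not called, and a difference of -2.11 (-3.11 to -1.11). IAGLU, GT72B1 and UGT76E11 (-1.15 and -2.36) were the 3 members lower in both mutants, and the CSN8 call of UGT76E11 was lost without the Wassilewskija array of batch 1 or either CSN8 array (adjusted p up to 0.129). The median effects were -0.240 in csn5a-1 and -0.155 in CSN8.

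Cell wall genes of the expansin, xyloglucan hydrolase and endoglucanase families showed called differences for 14 of 46 measured members, 7 in each direction. That was 30.4%, against 17.6% of all probe sets. XTH32 (AT2G36870), for a xyloglucan-modifying enzyme, read 10.81, 10.61 and 10.74 in Columbia and 6.93, 7.43 and 7.39 in csn5a-1, and 8.70 and 8.51 in Wassilewskija and 9.56 and 10.08 in CSN8. It fell by 3.47 ± 0.15 in csn5a-1 and rose by 1.22 ± 0.26 in CSN8, with a difference of 4.69 (4.01 to 5.36, adjusted p = 7.43e-06). GH9B11, for an endoglucanase, lay in the lowest 25% in every Columbia and csn5a-1 array and read 3.42 and 3.50 in Wassilewskija and 7.91 and 6.99 in CSN8, an increase of 3.99 ± 0.29. GH9C2 fell in csn5a-1 (effect -1.62 ± 0.18), and its difference was 2.40 (1.77 to 3.02). The expansin-like gene EXLA1 read 11.72, 8.62 and 8.56 in csn5a-1, the first array being higher than the others by about 3 units, and 7.03, 7.34 and 7.21 in Columbia. Its difference was -3.80 (-5.99 to -1.60), and the call was lost without the Wassilewskija array of batch 1 (adjusted p = 0.0777) or the CSN8 array of batch 2 (0.0634). With the CSN8 effect taken from the DTT arrays it was -2.21 (adjusted p = 0.177). The list's median effects were -0.131 and -0.114, and 9 differences were called without the CSN8 array of batch 1. The root hair expansin genes EXPA7 and EXPA18, the 2 measured root markers, had differences of -1.57 and -1.36, both called, and EXPA7 lost its call without most single arrays, with adjusted p up to 0.125. EXPA18 lost it with the DTT arrays, at 0.0777. Of these 2 root markers, 1 rose in csn5a-1 and 0 were called in CSN8, with median effects of 0.546 and -0.917. In whole seedlings a changed share of a cell type and changed RNA per cell cannot be told apart.

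Redox and peroxidase genes had 10 called differences among 24 measured members (41.7%, against 17.6% of all probe sets), 5 in each direction, and 13 with the replicate block. In csn5a-1 8 members rose and 9 fell. In CSN8, where fewer of all probe sets were called, 0 rose and 1 fell, which also fell in csn5a-1. PRX52 (AT5G05340), a class III peroxidase gene linked to lignin formation, read 8.13, 7.45 and 7.70 in Columbia and 3.38, 3.75 and 3.58 in csn5a-1, against 3.49 and 3.45 in Wassilewskija and 3.82 and 3.55 in CSN8. Its level was thus low in the other set in both groups, and the difference was 4.41 (3.61 to 5.21, adjusted p = 2.77e-05). UPB1, for a transcription factor that regulates peroxidases in the root, rose in csn5a-1 by 3.45 ± 0.23, with a CSN8 effect of 0.80 ± 0.47 that did not pass and a difference of -2.65 (-3.84 to -1.45). GR1 and GR, for glutathione reductases, fell in csn5a-1 (effects of -0.62 ± 0.11 and -0.89 ± 0.10), with positive differences of 1.25 and 1.13, and SAPX, for a stromal ascorbate peroxidase, had a difference of 1.44 (0.75 to 2.12). Outside this list, the methionine sulfoxide reductase gene MSRB5 rose in csn5a-1 by 0.81 ± 0.13 and fell in CSN8 (effect -1.88 ± 0.33). Its product repairs oxidised proteins, and its difference was -2.69 (-3.46 to -1.92, adjusted p = 0.000472). The redox list's median effects were -0.134 and -0.153. When any 1 array was left out, 7 to 10 differences were called.

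**Figure D5:**
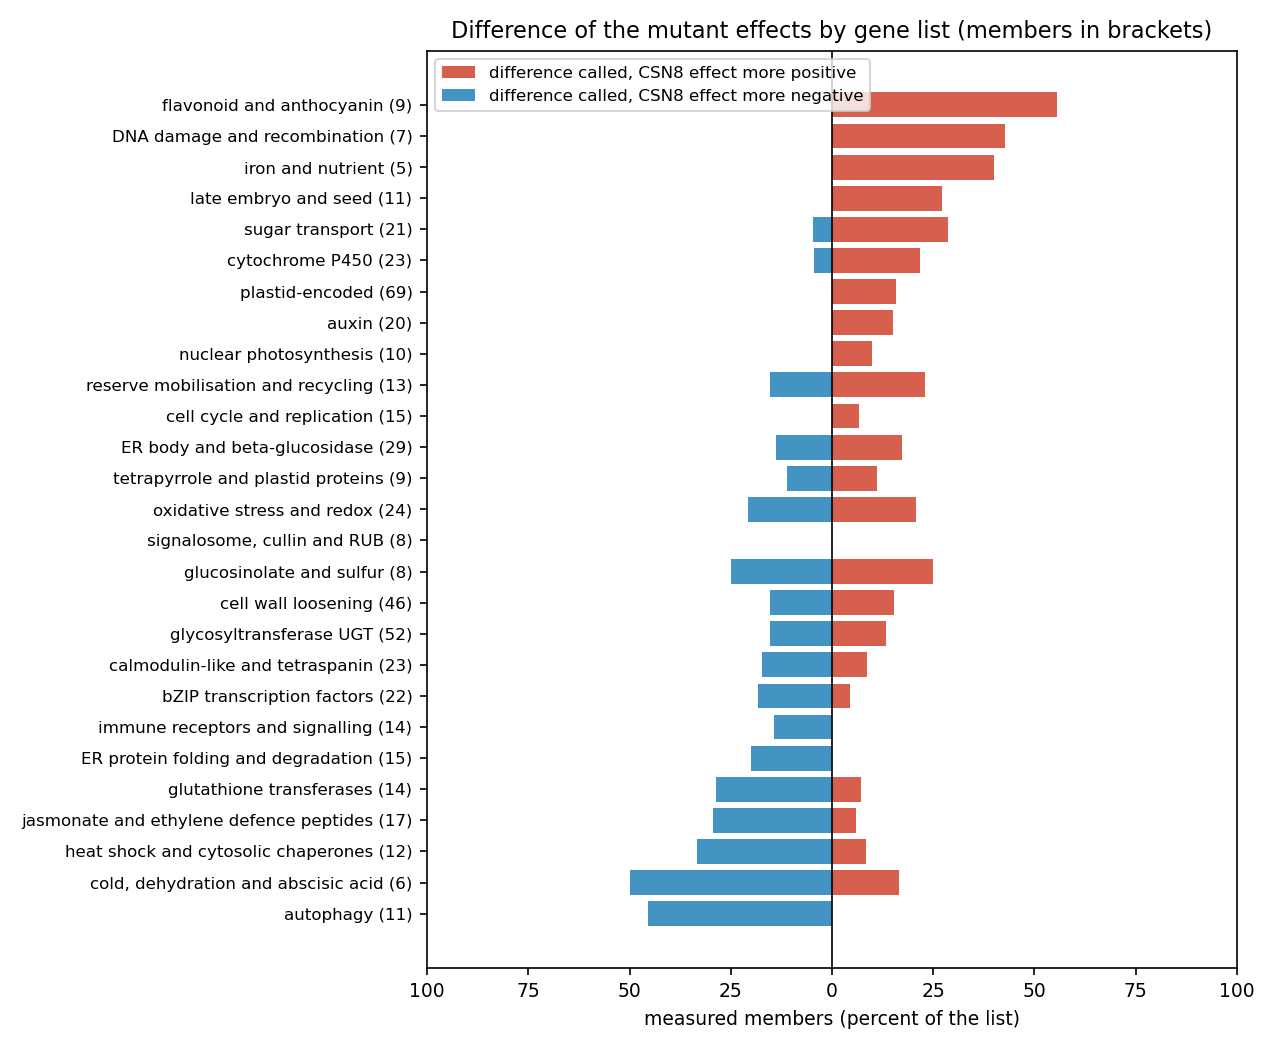
Share of the measured members of each list with a called difference (horizontal axis, percent), red where the CSN8 effect was the more positive and blue where it was the more negative; lists with at least 5 members, their number in brackets. Flavonoid genes have calls only on the red side and autophagy genes only on the blue side, and the signalosome list has none.

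ER body and β-glucosidase genes, some of which serve the glucosinolate-myrosinase defence of young tissue, had 9 called differences among 29 measured members. These were 31.0%, against 17.6% of all probe sets, 5 positive and 4 negative. The jacalin-like lectin genes JAL22 and JAL23 fell in csn5a-1 (effects of -1.99 ± 0.17 and -3.78 ± 0.16), with CSN8 effects of -0.16 ± 0.22 and -0.031 ± 0.20 that did not pass, and JAL23 lay in the lowest 25% in all untreated arrays of the set with CSN8. BGLU40 fell in csn5a-1 (effect -0.95 ± 0.14) and rose in CSN8 by 1.54 ± 0.31. JAL33 fell in both mutants, with effects of -1.07 ± 0.13 and -1.44 ± 0.19. NAI1, the transcription factor gene of ER bodies, fell in csn5a-1 (effect -0.44 ± 0.14), with a difference interval of -0.37 to 0.56, and PYK10, for the main ER body β-glucosidase, had an interval of -0.97 to 0.46. Median effects were -0.165 and -0.069.

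Late embryo and seed genes were lower in csn5a-1 for 7 of 11 measured members and higher for 3, and limma called 0 in CSN8 (0 at an unadjusted p under 0.05). Over all probe sets the called shares were 32.9% and 5.83%, so 0 of 11 in CSN8 lies near the share there. The median effect was -3.28 in csn5a-1 and -0.010 in CSN8. LEA4-5, a late embryogenesis abundant protein gene, read 8.99, 9.10 and 9.20 in Columbia and 5.01, 5.06 and 5.07 in csn5a-1, and 6.42 and 7.07 in Wassilewskija and 6.90 and 6.10 in CSN8, which overlapped. Its difference of 3.81 (2.95 to 4.67, adjusted p = 0.000115) and that of the oleosin gene OLEO3, 2.06 (1.08 to 3.04), were called. LEA18 read 5.31 and 7.55 in Wassilewskija, more than 2 units apart, and its difference of 4.79 (1.75 to 7.83) lost the call without most single arrays, with adjusted p up to 0.147. Intervals of members without a call were wide, as the M17 difference had an interval of -2.66 to 9.30 and that of BGLU19 0.43 to 6.84. The 3 called differences (27.3%, against 17.6% of all probe sets) became 5 without the Wassilewskija array of batch 2 and 2 without most other single arrays.

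Plastid-encoded genes had a negative median effect in csn5a-1 and a positive one in CSN8, but few were called and the arrays of csn5a-1 disagreed. Of 69 measured genes, 10 fell and 2 rose in csn5a-1, 3 rose and 0 fell in CSN8, and 11 differences were called (15.9%), all positive and near the share of all probe sets. The median effect was -0.436 in csn5a-1 and 0.572 in CSN8. The median level of these genes was 9.91, 8.77 and 8.09 in the 3 csn5a-1 arrays against 9.57 to 9.70 in Columbia, so csn5a-1 array 1 lay above its wild type and the others below. In the other set it was 8.83 and 8.46 in CSN8 against 8.27 and 7.81 in Wassilewskija. The count of called differences was 23 without csn5a-1 array 1, 6 without the CSN8 array of batch 1 or the Wassilewskija array of batch 2, and 19 with the replicate block. psbK, for a small photosystem II subunit, read 11.99, 12.53 and 11.55 in Columbia and 9.79, 9.60 and 9.43 in csn5a-1, and 9.58 and 9.87 in Wassilewskija and 10.14 and 10.28 in CSN8. It fell in csn5a-1 (effect -2.42 ± 0.24), and its difference of 2.91 (1.95 to 3.86, adjusted p = 0.00108) was called whichever array was left out. Nuclear genes of plastid proteins included PORB, for a protochlorophyllide reductase, which rose in csn5a-1 by 1.97 ± 0.18 with a difference of -1.88 (-2.55 to -1.20), and SPPA, for a thylakoid protease, which rose in CSN8 by 2.40 ± 0.22 with a difference of 2.26 (1.71 to 2.81). These were the 2 called differences among 9 measured members of the tetrapyrrole and plastid protein list (22.2%, against 17.6% of all probe sets).

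Cold and clock genes split. COR27 (AT5G42900), a cold- and light-regulated repressor of the clock, read 3.88, 3.78 and 4.10 in Columbia and 7.93, 7.89 and 7.64 in csn5a-1, against 7.16 and 5.75 in Wassilewskija and 5.81 and 6.83 in CSN8. The csn5a-1 arrays were all high, and in the other set the groups overlapped. Its difference was -4.03 (-5.22 to -2.84, adjusted p = 0.000566), and it was the 1 called gene of the 2 measured clock genes. COR15A, next to COR15B in name and function, fell in csn5a-1 (effect -2.14 ± 0.15) with a CSN8 effect of -0.77 ± 0.21 that did not pass. Its difference of 1.38 (0.79 to 1.96) was positive, and 2.12 when the CSN8 effect came from the DTT arrays, whereas the COR15B estimate was negative. The cold, dehydration and abscisic acid list had 4 called differences among 6 measured members (66.7%, against 17.6% of all probe sets). Of these 3 were negative, and without either array of batch 1 there were 2 calls. Its median effects were -0.284 and -1.11. HYH, a light signalling gene related to HY5, fell in csn5a-1 (effect -1.12 ± 0.32) with a CSN8 effect of 0.89 ± 0.23 that did not pass, and the difference of 2.01 (1.01 to 3.01, adjusted p = 0.0113) was called. It was the 1 call of the 2 measured light signalling genes, or 2 calls without the csn5a-1 array 1 or 2.

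Iron and phosphate genes had 2 called differences among 5 measured members (40%, against 17.6% of all probe sets), both positive. LPR1 (AT1G23010), a ferroxidase gene of the root response to low phosphate, read 5.21, 5.05 and 4.39 in Columbia and 4.99, 5.13 and 5.44 in csn5a-1, and 3.44 and 3.75 in Wassilewskija and 7.25 and 6.67 in CSN8. It rose in CSN8 by 3.37 ± 0.26 (adjusted p = 0.00216), and the difference was 3.06 (2.25 to 3.87). PYE, for an iron-deficiency transcription factor, fell in csn5a-1 (effect -1.78 ± 0.37), and its difference of 2.40 lost the call without the Wassilewskija array of batch 1 (adjusted p = 0.0598) or the CSN8 array of batch 2 (0.0510). Glucosinolate and sulfur genes had 4 called differences among 8 (50%), 2 in each direction. AOP3, a gene of glucosinolate side-chain formation, read 8.47, 7.48 and 8.59 in Columbia and 3.60, 3.62 and 3.69 in csn5a-1, against 3.40 and 3.47 in Wassilewskija and 3.45 and 3.52 in CSN8. Its csn5a-1 arrays and all arrays of the other set lay low, and its difference was 4.59 (3.76 to 5.43). OASA2, of the cysteine synthase family, rose in csn5a-1 by 1.21 ± 0.11, and its difference of -1.45 (-1.90 to -1.0) was called. Without the Wassilewskija array of batch 2, 2 of these differences were called.

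The remaining lists had few calls or calls in both directions. Of all probe sets 17.6% had a called difference, and of those with a symbol 20.8%. The share was 26.1% for cytochrome P450, 35.7% for glutathione transferase and 26.1% for calmodulin-like and tetraspanin genes. It was 22.7% for bZIP and 20% for ER protein folding genes, near the share of probe sets with a symbol. Cytochrome P450 genes had 6 called differences of 23, 5 positive, and 3 without some single arrays, among them the CSN8 array of batch 1. CYP71B28, 1 of the 5, rose in CSN8 by 1.01 ± 0.15 with a difference of 1.31 (0.88 to 1.75), and CYP718 rose in both mutants, by 1.18 and 0.72. Glutathione transferases had 5 of 14, 4 negative, and 1 to 3 when any 1 array was left out. Calmodulin-like and tetraspanin genes had 6 of 23, 4 negative, and 3 without the Wassilewskija array of batch 1. Of these, CML42 had a difference of -2.06 (-2.92 to -1.20) and TET4 of 2.72 (1.99 to 3.45). The bZIP transcription factor genes had 5 of 22, 4 negative, and 2 without the csn5a-1 array 2 or either array of batch 1. ER protein folding genes had 3 of 15, all negative, and 0 without the Columbia array 1 or either array of batch 1. Among the 4 pollen and anther genes limma called 0 differences, with 0 at an unadjusted p under 0.05.

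Among genes called in opposite directions, BZIP61 (AT3G58120), a member of the bZIP list above, read 6.13, 6.10 and 6.42 in Columbia and 8.28, 6.98 and 6.90 in csn5a-1, and 7.41 and 7.52 in Wassilewskija and 4.54 and 5.26 in CSN8. It rose by 1.17 ± 0.35 in csn5a-1 and fell by 2.57 ± 0.40 in CSN8, a difference of -3.73 (-5.03 to -2.44, adjusted p = 0.00152). SRC2, named after a cold-regulated soybean gene, rose in csn5a-1 by 0.98 ± 0.22 and fell in CSN8 (effect -2.34 ± 0.26), and its difference of -3.32 was -2.05 with the DTT arrays. YAB5, a YABBY gene of leaf polarity, rose by 1.24 ± 0.13 in csn5a-1 and fell by 0.93 ± 0.17 in CSN8. In the reverse direction ARA12, a subtilisin-like protease gene, fell by 0.78 ± 0.17 in csn5a-1 and rose by 1.46 ± 0.18 in CSN8, with a difference of 2.23 that was 1.47 with the DTT arrays. The transcription factor gene bHLH34 fell by 0.80 ± 0.22 in csn5a-1 and rose by 1.32 ± 0.22 in CSN8. TBL45, of a family that acetylates cell wall polymers, was not among these calls. It rose in csn5a-1 by 1.2 ± 0.17, its CSN8 effect of -2.14 ± 0.50 did not pass, and the difference was -3.34 (-4.52 to -2.16).

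For part of the called differences the level in one set left little room for a decrease. In 241 of the 3995 (6.03%), all arrays of the set with the smaller effect lay in the lowest 25% of their values. A low level limits a decrease but not an increase, and the 241 hold both. The csn5a-1 effect was the larger in size for 2347 of the 3995, and 187 of these lay low throughout the untreated arrays of the Wassilewskija set. Of the 187, 95 were called lower in csn5a-1. The CSN8 effect was the larger for 1648, and 54 of these lay low throughout the Columbia set. Among named genes THI2.1, JAL23 and CYP71B24, a cytochrome P450 gene, belonged to the first kind and GH9B11 to the second. THI2.1 and JAL23 fell in csn5a-1. The difference of CYP71B24 was negative and GH9B11 rose in CSN8, so the low level left room for the like change there. Room to fall can also be short above this cut, so these counts do not give the share of limited decreases. PRX52 and AOP3 read low throughout the untreated Wassilewskija set, as given above. SAG29 lay too low in Wassilewskija for a decrease as large as that in csn5a-1. For CHIL, ICL, XTH32, BZIP61 and SRC2 this was not so in either set.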

How the data were processed

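Arabidopsis ATH1 arrays of whole seedlings gave log2 expression values, deposited by the authors and made with RMA, as the submitters' processing notes name it. No software or version is given for that step. Sorted values differed by a median of 0.016 to 0.0758 between arrays of the Columbia set, 0.0117 to 0.0537 within the Wassilewskija set and 0.472 to 0.534 between sets, so each effect was taken within its set. After 64 control probe sets were removed, 22746 were tested. The platform annotation named 1 gene for 13513, several for 503 and none for 8730, and 13436 matched the reference gene table. A symbol other than the locus existed for 1551 probe sets, of which 20.8% had a called difference.

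Effects came from limma 3.58.1 (R 4.3.3) fits of the 6 arrays of the Columbia set and the 8 of the Wassilewskija set. The difference came from 1 fit of 14 arrays in 6 groups, which share the spread. Tests were two-sided, with an adjusted p under 0.05 by Benjamini-Hochberg and no minimum fold. The p-values measure only the spread between these arrays, 2 or 3 a group, and their number limits the precision. Batch numbers pair the arrays of the Wassilewskija set by their labels. Equally numbered arrays of the Columbia set share only a number by their labels. Between their deviations from group means r was 0.0448 to 0.0701, and -0.098 to 0.0638 between unequally numbered ones. Within the labelled batches r was 0.0747, so these values do not tell paired from unpaired arrays.

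The comparison, the 32 gene lists and the naming rule were chosen with earlier results of these data known. The rule took probe sets with 1 gene and a symbol: the 10 largest differences each way, the 10 largest common changes each way, the 8 largest opposite changes each way, up to 4 divergent and 2 common genes a list, and all signalosome genes; other list members are named with their list. Genes that share only a symbol with a list's process, such as a chitinase gene named CHI, were left out of that list. One probe set a gene was used, the one with the highest mean. On simulated differences among 22746 probe sets, the fit recovered 2 of 100 at a log2 size of 0.5, 40 at 1, 85 at 2 and 97 at 3, with 8 false calls. Far fewer probe sets differed there than were called in the data, which makes the adjusted threshold stricter. These shares therefore do not give the recovery in the data. Alternatives were other normalizations, filters, blocks, variance models, the DTT arrays and leaving out each array. Sequences were not used here.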

Additional observations from a re-analysis of the deposited data

Results flagged for a closer look

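The genes below were singled out because both mutants changed them past the threshold in opposite directions and the test of the difference passed as well. Each value is the CSN8 effect minus the csn5a-1 effect on the log2 scale. Among genes higher in CSN8 and lower in csn5a-1, the difference was 5.95 for ICL, 4.96 for CHIL, 4.69 for XTH32, 3.07 for UGT84A1 and 2.88 for CPUORF47. It was 2.48 for BGLU40, 2.23 for ARA12 and 2.11 for bHLH34. The CSN8 calls of XTH32 (adjusted p = 0.0444) and CPUORF47 (0.0476) lay close to the threshold. Among genes lower in CSN8 and higher in csn5a-1, the difference was -3.80 for EXLA1, -3.73 for BZIP61, -3.32 for SRC2 and -2.69 for MSRB5. It was -2.17 for YAB5, -1.44 for AGL21, a MADS box gene, and -1.31 for IQD28. The limma adjusted p of AGL21 was 0.0326 in csn5a-1 and 0.0364 in CSN8. For EXLA1 and BZIP61 the csn5a-1 array 1 was the highest of its group, at 11.72 and 8.28. The separate calls in each mutant, which make a gene opposite, were not followed for these genes under the alternatives. With the 10 untreated arrays alone, opposite calls fell from 241 to 55 over all probe sets. Except for EXLA1, the difference of each of these 15 genes passed under every alternative tried, but the genes had been picked by the size of that difference.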

How the results depend on the processing

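The count of called differences stayed within 1.5 times of 3995 under every alternative except leaving out the Wassilewskija array of batch 1, and leaving out any 1 array gave 2657 to 3916. The count in csn5a-1 was 5421 to 7221 without any 1 array and 2617 with a minimum log2 size of 1, which also gave 224 common and 104 opposite calls. The CSN8 count ranged from 408 to 1035, the common calls from 171 to 511 and the opposite calls from 62 to 229 without any 1 array. With the 10 untreated arrays alone these were 289, 112 and 55. With the replicate number as a block they were 2706, 864 and 488, and with a batch block in the Wassilewskija set alone 2706, 881 and 490. With the CSN8 effect averaged over both states they were 3386, 1107 and 539, and with the DTT arrays the opposite calls were 138. No named gene reversed its direction past the threshold. Of 133 named differences 100 were called, and 63 of these under every alternative tried. The replicate block ended the call of ATPC2 and of UGT74B1 (adjusted p = 0.0556) and added those of BUB3.2 and COR15B among the named genes. In simulated data a difference of 1 was recovered in 40 of 100 cases. Far fewer probe sets were changed there than the 3995 called in the data, which makes the adjusted threshold stricter. The recovery in the data themselves was therefore not measured.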

Other observations

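The CSN8 effect was also compared between untreated and DTT arrays, by an interaction term in the limma fit of the 8 arrays. It passed for 0 of 22746 probe sets, with 662 at an unadjusted p under 0.05. For TET8, a tetraspanin gene that fell in CSN8 (effect -1.57 ± 0.22), the effect in the DTT arrays was 0.57, and its difference from csn5a-1 of -2.32 became -0.18 with those arrays.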
